A study of Arabidopsis thaliana with 6 samples.

Results

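GH3 enzymes are acyl-acid amido synthetases: they join a plant hormone such as auxin or jasmonate to an amino acid. The family was taken here as 10 listed Arabidopsis loci, and a locus counted as measured when the probe annotation gave it a named ATH1 probe set of its own. Of the 10 loci, 2 were measured, WES1 (AT4G27260, also called GH3.5) and GH3.3 (AT2G23170), each by 1 probe set, among 8200 named genes and 15177 tested probe sets. The other 8 loci, DFL1 (AT5G54510), GH3.4 (AT1G59500), GH3.1 (AT2G14960), DFL2 (AT4G03400), JAR1 (AT2G46370), GH3.17 (AT1G28130), AT5G51470 and AT1G48660, have no value below. They may be among the 6513 tested probe sets without a gene name or the 334 with several genes, or be absent from the deposited table. The results therefore describe a pair of auxin-conjugating genes and not the family, and they hold nothing on JAR1, the enzyme that makes the active jasmonate-isoleucine conjugate.

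The samples were leaves of Col-0 wild-type plants, 3 weeks old, in 2 groups with 3 samples each. In the saliva group, a syringe without a needle pushed into the leaves a feeding solution, made of sucrose and amino acids, that had held feeding aphids of the species Myzus persicae, the green peach aphid, for 24 h, and so carried their saliva. In the control group, leaves received the same kind of solution from cups with 0 aphids. Leaves were harvested 24 h after treatment, per the sample labels, and 18 leaves from 6 plants were pooled for each sample, so differences between single plants are not seen. Both kinds of plant shared a pot, and the experiment was done 3 times, so each saliva sample has a control sample of the same repeat.

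Auxin (indole-3-acetic acid) is removed from the active pool in several ways, among them joining to amino acids by GH3 enzymes, joining to glucose, and oxidation. Several GH3 genes, GH3.3 among them, are early auxin-response genes, switched on when auxin receptors cause the breakdown of Aux/IAA repressors, so they both respond to the hormone and lower it. WES1 is known from Arabidopsis to act on auxin and also on salicylic acid, and plants that overexpress it are dwarfed.

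Both measured genes were dim in control leaves and had higher values on all saliva arrays, by a mean log2 difference of 1.33 for WES1 and 0.71 for GH3.3. Neither passed the test across all probe sets. In the saliva group WES1 had a normalized intensity of 7.36, 17.73 and 22.57 in repeats 1, 2 and 3, against 5.74, 5.68 and 5.70 in the control group. Every saliva value of WES1 lay above every control value, the controls lay within a very narrow band, and the saliva array of repeat 1 was the closest to them. GH3.3 had an intensity of 7.82, 7.42 and 16.89 in the saliva group, against 5.58, 5.48 and 7.36 in the control group. For GH3.3 the groups came close to meeting, with the lowest saliva value just above the highest control value, and repeat 3 was the highest of its group on both diets.

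**Figure D1:**
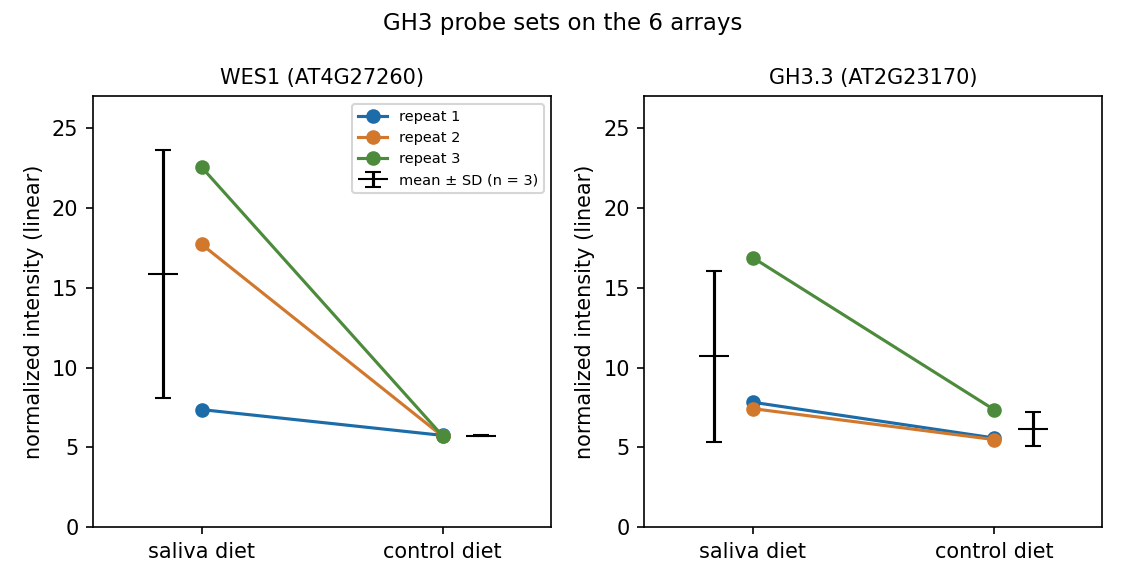
Normalized intensity (linear scale, y axis) of WES1 and GH3.3 on the saliva and control arrays. Coloured lines join the arrays of a repeat, and the black mark and bar give the mean and SD of the 3 arrays of a group. The WES1 controls coincide near 5.7 while its saliva values run from 7.36 to 22.57, and the highest GH3.3 value, 16.89, is on the saliva array of repeat 3.

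WES1 averaged 15.9 ± 7.77 in saliva leaves and 5.71 ± 0.031 in control leaves (SD of the linear intensity, n = 3 each). Within repeats 1, 2 and 3 its saliva value was 1.28, 3.12 and 3.96 times the control value. The mean log2 difference, saliva minus control, was 1.33 ± 0.86 (SD, n = 3 pairs), with a standard error of 0.34 and a 95% interval from 0.40 to 2.25 in the paired limma fit. The adjusted p was 0.368 in that fit (Benjamini-Hochberg over all tested probe sets), and the unadjusted p was 0.0154. Higher mean differences were measured for 37 of the 15177 tested probe sets, or 0.244%. The spread of the WES1 difference between pairs was also among the wide ones, as 1.37% of probe sets had a larger SD. In limma each variance is drawn toward those of the other probe sets, and the median SD between pairs over all tested probe sets was 0.178. The standard error, interval and p of WES1 therefore do not give the precision of its 3 pairs alone.

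GH3.3 averaged 10.7 ± 5.36 in saliva leaves and 6.14 ± 1.06 in control leaves (SD of the linear intensity, n = 3 each). Its saliva value was 1.40, 1.35 and 2.29 times the control value of repeats 1, 2 and 3. The mean log2 difference was 0.71 ± 0.43 (SD, n = 3 pairs), with a standard error of 0.18 and a 95% interval from 0.22 to 1.20 in the paired limma fit. The adjusted p was again 0.368 and the unadjusted p 0.0151 in limma. As for WES1, these limma values rest in part on the variance of other probe sets and not on the 3 pairs alone. Without the block for repeats the 95% interval for GH3.3 ran from -0.13 to 1.54 (limma unadjusted p = 0.0827), and with an estimated block correlation from -0.16 to 1.58 (limma unadjusted p = 0.0938), so both held 0. Larger mean differences were measured for 208 probe sets, 1.37% of those tested. Without replicate 3 the GH3.3 difference was 0.46.

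The pair can be read against the other tested probe sets as a description only. Its members were chosen with earlier results of these data known, so their place among all probe sets is no independent evidence. In the same fit 0% of probe sets were higher and 0% lower at an adjusted p under 0.05. At an unadjusted p under 0.05, 5.59% were higher, 848 probe sets, with both WES1 and GH3.3 among them, and 5.44% were lower. Without the block, or with an estimated block correlation, WES1 alone of the pair was under that p. All saliva arrays lay above all control arrays for 7.66% of probe sets, and a difference above 0 in all 3 pairs was found for 16.7%; WES1 and GH3.3 met both. A mean log2 difference of at least 1 was found for 0.593% of probe sets, and of the pair WES1 reached it. The median difference of these 2 genes was 1.02, beside a median of -0.00056 over all tested probe sets. An exact two-sided paired permutation test of each gene's 3 differences gave p = 0.25, the smallest value that 3 pairs can give.

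Both genes sat near the lower end of the arrays' range. The lowest intensity on an array was between 3.23 and 3.28 and the median between 139 and 147. In saliva leaves 10.3% to 20.5% of probe sets were dimmer than WES1, against 6.51% to 6.70% in control leaves. For GH3.3 the share was 10.4% to 17.8% in saliva leaves and 5.93% to 10.3% in control leaves. The mean log2 intensity of WES1 was 3.84 in saliva and 2.51 in control leaves, and that of GH3.3 was 3.31 in saliva and 2.60 in control leaves. No detection call was used here, so the control values are read as low intensities and not as a measured level of transcript. Of the 2627 probe sets with a mean log2 intensity under 4, 20 had a difference of at least 1 and 2 had a difference of -1 or lower, and WES1 was one of the 20. Over all tested probe sets the same counts were 90 and 18, so higher values were the more frequent there too. Whether dim probe sets were left out of the table before deposit was not checked. The shares, ranks and medians given here therefore hold for the 15177 tested probe sets of the deposited table, which may not be all those on the array. The median SD between pairs in that dim set was 0.111, against 0.86 for WES1 and 0.43 for GH3.3.

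**Figure D2:**
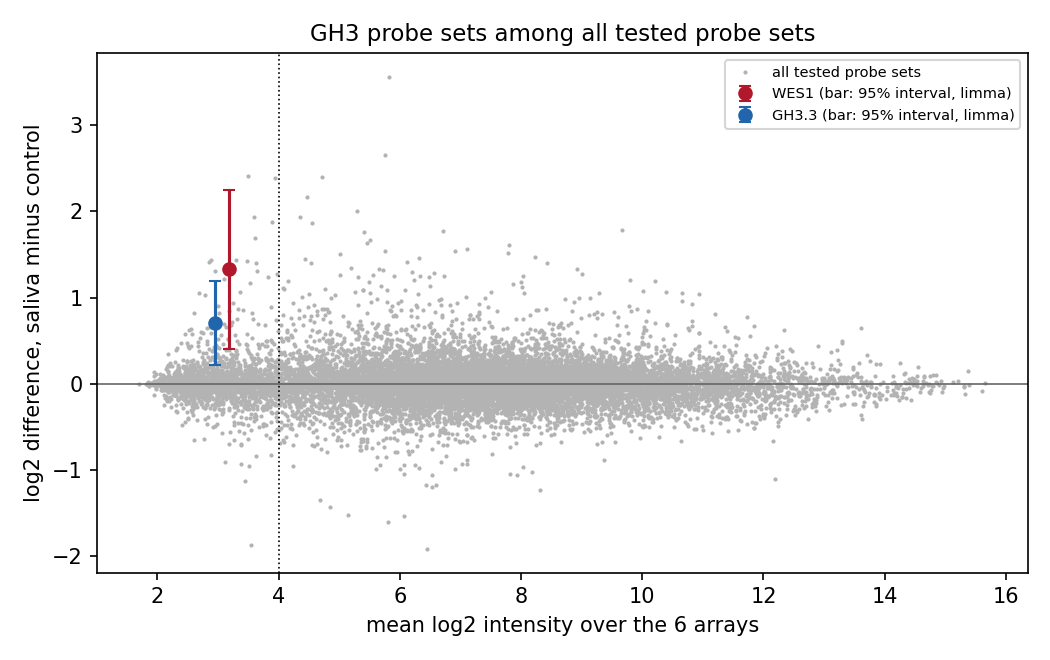
Log2 difference, saliva minus control (y axis), against the mean log2 intensity over the 6 arrays (x axis) for all 15177 tested probe sets in grey. WES1 (1.33) and GH3.3 (0.71) are drawn with 95% intervals from the paired limma fit, both left of the dotted line at a mean log2 intensity of 4.

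The size of these differences depends on how low intensities are handled. With 16 added to each intensity before the logarithm, which shrinks changes of dim probe sets by construction, the difference was 0.52 for WES1 and 0.25 for GH3.3. With probe sets under a mean log2 intensity of 4 removed, neither gene remained to be tested.

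The repeats did not order the pair in the same way. WES1 had a log2 difference of 0.36 in repeat 1, 1.64 in repeat 2 and 1.99 in repeat 3. GH3.3 had 0.49, 0.44 and 1.20 in the same repeats. The WES1 difference exceeded that of GH3.3 by 1.20 in repeat 2 and 0.79 in repeat 3 and by -0.13 in repeat 1, where it was the smaller one. The mean excess was 0.62 ± 0.68 (SD, n = 3 pairs, exact two-sided paired permutation p = 0.5). With 3 pairs this test cannot go below 0.25, so it could not have shown a difference between the genes. The raw file names in the labels carry one suffix for repeat 1 and another for repeats 2 and 3. Within repeats 2 and 3 alone the limma difference was 1.81 for WES1 and 0.82 for GH3.3 (adjusted p = 0.379 and 0.403), and repeat 1 alone holds 1 pair and gives no test. Repeat 1 and its suffix cannot be told apart.

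The authors' deposited table gives WES1 a fold change of 2.78, saliva over control, with a paired false discovery rate of 0.0804 and an unpaired one of 0.331. In the authors' deposited table GH3.3 has a fold change of 1.74, with rates of 0.101 and 0.490. By their paired rate in the authors' deposited table WES1 stood at rank 1013 and GH3.3 at rank 1427 of 15236 probe sets. All 4 of these rates were above 0.05. The paired rates were lower than the adjusted p of 0.368 that both genes had in the paired limma fit, and why they differ was not tested.

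Other steps of auxin and jasmonate metabolism and response were read from 8 lists with 108 loci, of which 8 genes in 4 lists had a named probe set. Of these 8 genes 0 were higher and 0 lower at an adjusted p under 0.05 in limma, and 0 had an unadjusted p under 0.05. Over all tested probe sets 0% were called in either direction at the adjusted threshold, and 5.59% were higher and 5.44% lower at the unadjusted one. A count of 0 among 8 genes is near those shares. Their median log2 difference was 0.025, with 4 means above 0 and 4 below, from -0.21 to 0.25. The auxin receptor, auxin response factor, auxin transport and jasmonate perception lists had 0 measured members.

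The other routes that remove auxin were nearest in function to the GH3 pair. DAO1 (AT1G14130), the dioxygenase that oxidises auxin, had 53.98, 44.69 and 50.98 in saliva leaves, against 44.54, 46.81 and 34.80 in control leaves. Its groups overlapped and the log2 difference was 0.25 ± 0.31 (SD, n = 3 pairs, limma adjusted p = 0.575). IAGLU, a glucosyltransferase that joins auxin to glucose, had 20.19, 13.08 and 11.82 in saliva leaves, against 17.57, 11.39 and 12.26 in control leaves, a difference of 0.12 ± 0.15. IAGLU therefore varied more between repeats than between diets.

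On the supply side, YUC2, a flavin monooxygenase of auxin synthesis, was dim and flat, with 4.63, 4.68 and 4.75 in saliva leaves, against 4.70, 5.11 and 4.62 in control leaves. Among Aux/IAA genes, which encode repressors of auxin response, IAA18 had 285.70, 286.26 and 295.47 in saliva leaves, against 266.98, 279.58 and 281.25 in control leaves. The IAA18 groups did not overlap, but the difference was only 0.068 ± 0.032 (limma adjusted p = 0.786). IAA29 had 36.07, 27.10 and 22.84 in saliva leaves, against 19.76, 22.68 and 43.85 in control leaves, so that its difference was above 0 in repeats 1 and 2 and below 0 in repeat 3, where WES1 and GH3.3 had their highest differences. IAA34 stayed between 5.80 and 5.81 in saliva leaves and between 5.75 and 6.21 in control leaves. YUC2 and IAA34 were as dim as the GH3 genes in control leaves. Their flat values are likewise read as low intensities and not as an unchanged level of transcript.

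The measured jasmonate genes had lower values on the saliva array in repeats 1 and 2 and higher ones in repeat 3. OPCL1, a coenzyme A ligase of jasmonate synthesis, had 583.41, 665.46 and 638.96 in saliva leaves, against 715.29, 816.48 and 434.84 in control leaves. JMT, which methylates jasmonate, had 25.14, 26.07 and 30.21 in saliva leaves, against 32.14, 36.75 and 25.86 in control leaves. Their mean log2 differences were -0.011 ± 0.49 and -0.21 ± 0.38 (SD, n = 3 pairs), and in both the groups overlapped.

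**Figure D3:**
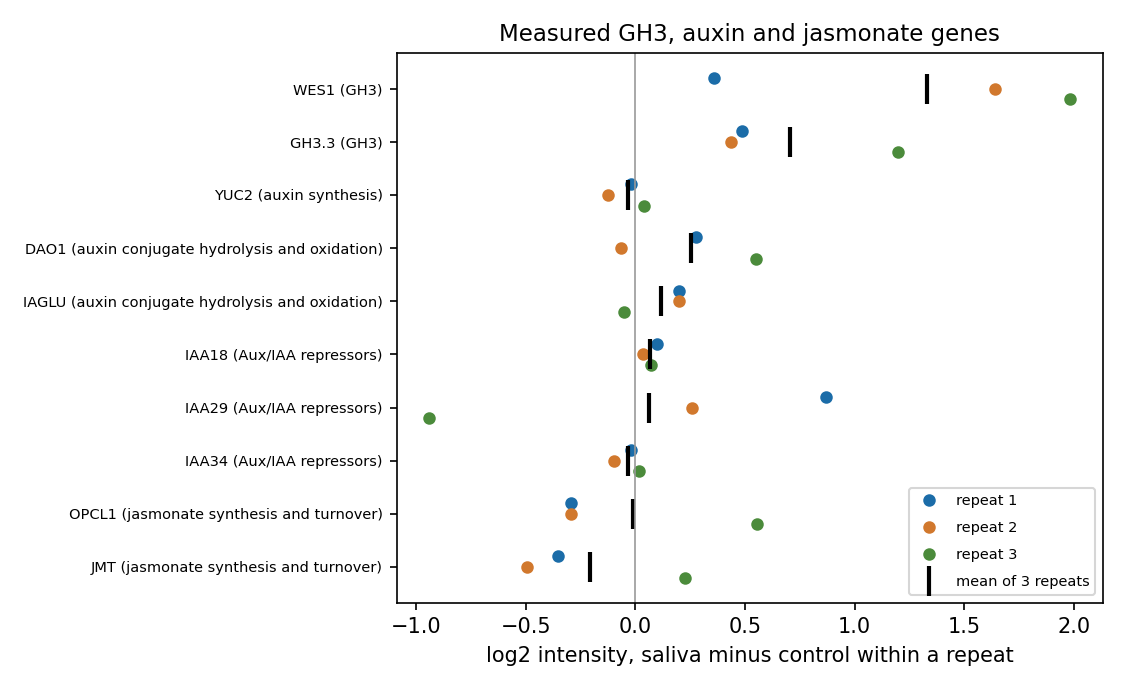
Log2 difference within each repeat, saliva minus control (x axis), for the measured GH3, auxin and jasmonate genes (rows). Points are repeats and the black bar is their mean; WES1, GH3.3 and IAA18 have all 3 points right of 0, and the means of the 8 other genes lie between -0.21 and 0.25.

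Genes with the nearest profile were found by the root mean square distance between log2 profiles over the 6 arrays, each centred on its own mean, among 8199 other named genes. The profiles were not scaled, so the distance depends on the size of a gene's changes as well as on their pattern. The profile nearest to WES1 was that of EXO, which promotes cell expansion and responds to brassinosteroids, at a distance of 0.29. EXO had intensities of 565.45, 976.63 and 918.84 in saliva leaves, against 353.42, 281.67 and 356.77 in control leaves. EXO was picked for its likeness to WES1, so the small difference they share in repeat 1 follows from the choice. AT4G27450 followed at 0.33 and GID1B, a gibberellin receptor, at 0.36. GID1B differed from WES1 in repeat 1, where its log2 difference was -0.089.

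The profiles nearest to GH3.3 lay closer. SBT3.5, a subtilisin-like protease, was at 0.091, AT2G39710 at 0.122 and AT5G38900 at 0.133. SBT3.5 had 53.91, 51.34 and 101.86 in saliva leaves, against 41.48, 37.78 and 51.88 in control leaves, with the highest value on the saliva array of repeat 3, as for GH3.3. Because SBT3.5 was picked for its likeness to GH3.3, this shared peak follows from the choice. WES1 and GH3.3 were 0.52 apart, so that GH3.3 ranked 33 among the genes nearest to WES1, and WES1 ranked 1635 among those nearest to GH3.3. WES1 had the larger changes, so neither these ranks nor the closer distances for GH3.3 measure likeness in pattern alone. A likeness over 6 arrays of paired leaves is a description, since all profiles share the same arrays and a shift of 1 array moves many genes.

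**Figure D4:**
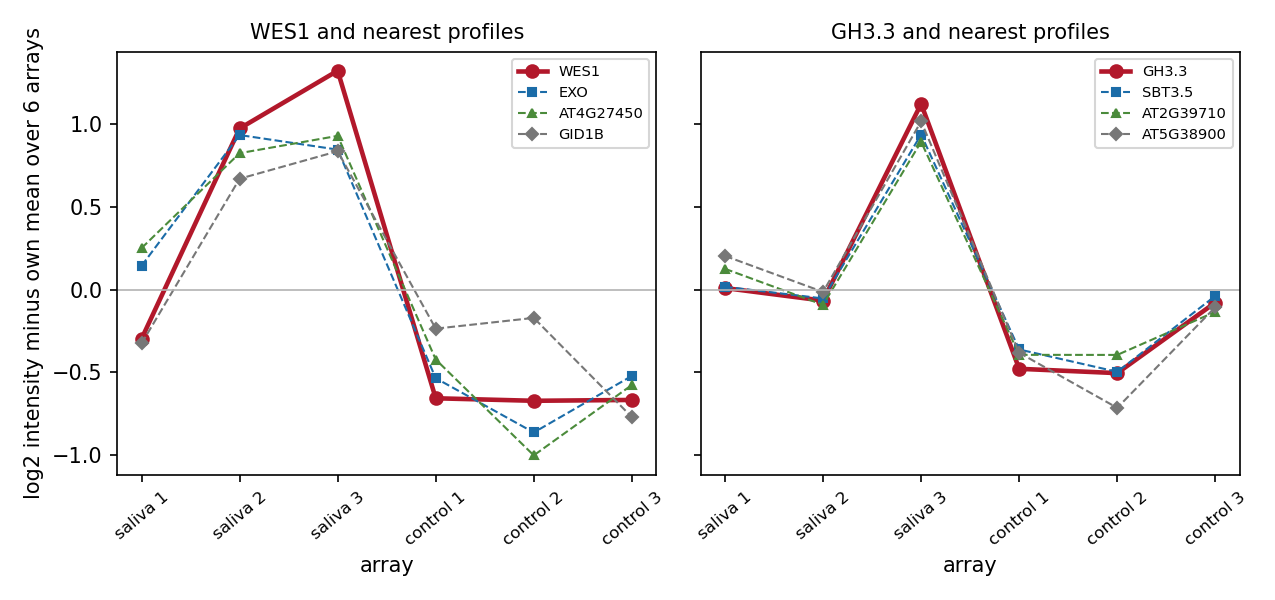
Log2 intensity minus each gene's own mean (y axis) on the saliva and control arrays (x axis) for WES1, left, and GH3.3, right, each with its 3 nearest named genes. The left profiles are higher on saliva arrays 2 and 3, and the right profiles peak on saliva array 3.

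The labelled tissue was checked with leaf markers. RCA, rubisco activase, averaged 27343 in saliva and 27329 in control leaves, and LHCB4.1, a light-harvesting protein, averaged 27253 in saliva and 28616 in control leaves, far above the array medians. These were the 2 measured genes of 10 listed leaf markers, and their log2 differences were 0.00087 ± 0.044 and -0.070 ± 0.022 (SD, n = 3 pairs). Of 10 listed markers of root, meristem and flower 0 had a named probe set, so the part of other organs in the result was not tested. In pooled whole leaves, a change in the number of cells that hold a GH3 transcript and a change in transcript per cell cannot be told apart.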

How the data were processed

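Total RNA from pooled leaves was hybridised to Affymetrix ATH1 GeneChips, 1 array per sample. Per the file headers, the table that the authors deposited holds 1 normalized intensity per probe set and array (linear, not logged), with a fold change (a ratio of group means) and paired and unpaired false discovery rates (adjusted p-values). The submitters' processing notes list GCRMA, GCOS and limma; versions and roles are not given in the sources used here. A count of 0 array values differed between both deposited tables.

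Log2 values were taken without a pseudocount. Probe sets were named from the platform annotation and RefSeq (TAIR10.1): 8330 had 1 gene, 334 several and 6513 none, and 59 Affymetrix controls were left out. Where a gene had several probe sets, the one with the highest mean was used. The saliva minus control difference came from lmFit and eBayes of limma 3.58.1 under R 4.3.3, with the repeat as a block, following the shared pots in the labels, with Benjamini-Hochberg adjustment over 15177 probe sets and a threshold of 0.05. Deviations from the group mean correlated by -0.12, 0.15 and 0.10 within pairs 1, 2 and 3. The consensus correlation within pairs was -0.054 in limma. The block thus follows the design, and the values show little likeness within pairs. The fit was tested on simulated data. The planted changes were larger than the mean differences of WES1 and GH3.3, so that test does not cover changes of their size. Its array noise was also scaled down from the observed spread of each probe set, so it does not cover the noise of these data. The number of arrays, which carry no read depth, limits the precision.

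The members and gene lists were chosen with earlier results of these data known. Named were the measured GH3 loci, measured members of the auxin and jasmonate lists, and the 3 nearest profiles of each GH3 gene. Alternatives covered the block, dim probe sets, pseudocount, trend, scaling, array weights and each repeat left out. Because no sequence of a GH3 gene was in the sources used here, none is printed.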

Additional observations from a re-analysis of the deposited data

How the results depend on the processing

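Under each of the 11 other settings in which they could be tested, WES1 and GH3.3 kept a difference above 0 and an adjusted p above 0.05 in limma. The range was 0.52 to 1.81 for WES1 (adjusted p from 0.183 to 0.793) and 0.25 to 0.84 for GH3.3 (adjusted p from 0.221 to 0.789). The differences were unchanged at 1.33 and 0.71, by construction, without the replicate block, with an estimated block correlation, with the trend and with the file-name suffix as a block. For both genes all 3 pair differences were above 0, so leaving out a repeat, the pseudocount or array weights could not turn the sign either. Without the replicate block the unadjusted p in limma was 0.0176 for WES1 and 0.0827 for GH3.3. Of the 11 other settings, the unadjusted p in limma stayed under 0.05 in 11 for WES1 and in 7 for GH3.3. The 4 in which it did not for GH3.3 were no block, an estimated block correlation, the pseudocount of 16 and the suffix as a block. The suffix block was chosen after seeing the data. With that pseudocount the median of the 2 genes was 0.39 instead of 1.02, by construction. Leaving out a repeat gave 1.00 to 1.81 for WES1, 0.46 to 0.84 for GH3.3 and 0.73 to 1.32 for their median. Counts past the adjusted threshold stayed at 0 for the GH3 and pathway genes and for all probe sets, whose unadjusted counts ran from 513 to 1447 higher and 428 to 1276 lower. The floor at a mean log2 of 4 removed both GH3 genes, and the mean over several probe sets was not run because each of these genes has 1.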
